A study of Mus musculus with 12 samples.

Results

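The zinc finger cluster on chromosome 9 that holds Zfp266 was examined, with 5 member genes: Zfp560, Zfp26, Zfp426, Zfp266 and Zfp846. They were chosen by name and position, as genes around Zfp266, the gene that the study knocked out, and they are 5 of 21853 protein coding genes and 5 of 365 genes named Zfp with a number (GENCODE M21). Each member was given a window of its gene body and 20 kb on either side, and every accessible region overlapping a window was taken. The 5 windows held 25 of the 273256 intervals obtained by merging the peak lists of the 4 groups. Because the windows of Zfp26, Zfp426 and Zfp266 overlap each other, some of these intervals belong to more than 1 member.

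Chromatin accessibility had been measured by Omni-ATAC-seq, in which a transposase cuts and tags open DNA, in 12 libraries of 50000 sorted cells each. The cells were mouse embryonic fibroblasts (MEFs) at passage P2, taken from E12.5 embryos, and the labels give their strain as 129. By the study's methods all groups started from a MEF stock with Cas9 and a doxycycline-inducible cassette for OCT4, SOX2, KLF4 and MYC (OSKM). The embryos of this stock were chimeras, so not every cell need carry these transgenes. They received lentivirus with a non-targeting control guide RNA (control, genotype wild type) or with a Zfp266 guide RNA (KO), and then either stayed in MEF medium (MEF) or, for the last 72 h, grew in ESC medium with doxycycline at 300 ng/ml and vitamin C at 10 µg/ml (reprogramming). All 4 groups had 3 libraries and were harvested 96 h after transduction. The KO groups were pools of transduced cells and not a clone, so unedited cells may remain in them. For the KO MEFs used in its RNA-seq, the study reported a high rate of out-of-frame insertions and deletions. For the reprogramming groups, Cas9 MEFs had been mixed with wild type 129 MEFs and cells with the mOrange reporter of the cassette were sorted, whereas no such marker is given for the sort of the MEF groups. The start sites of 10 of 10 fibroblast marker genes had a peak in both MEF groups, and 7 and 8 of them did in reprogramming control and KO, where Col1a1 and Col1a2 had none. Of 8 marker genes of other cell types, 1 had a start-site peak in the MEF groups (Cd68, of macrophages) and 2 had one in the reprogramming groups (Cd68 and Krt14, of keratinocytes). All 5 marker genes of early reprogramming (Cdh1, Epcam, Fut9, Alpl and Sall4) had a start-site peak in every group, MEF included. In peak height, none of the 5 rose by 1.5 times or more in reprogramming. Cdh1 fell, with reprogramming to MEF ratios of 0.598 in control and 0.586 in KO. Falls of 1.5 times or more occurred at 16.68% (control) and 17.95% (KO) of genes with start-site peaks in every group.

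Proteins of the KRAB zinc finger family bind DNA through arrays of C2H2 zinc fingers and carry a KRAB domain, which recruits TRIM28 and, through it, enzymes that lay down repressive chromatin. Their genes lie in clusters that grew by tandem duplication, and many of their targets are transposable elements. Their own promoters are usually open in most tissues. Reprogramming by OSKM closes many fibroblast enhancers and opens new sites within a few days.

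The genes lie in the order Zfp560, Zfp26, Zfp426, Zfp266 and Zfp846 along 260.3 kb (GRCm38). Zfp560 spans 20345136 to 20385177, Zfp26 spans 20428449 to 20460162, Zfp426 spans 20468549 to 20492746, Zfp266 spans 20495068 to 20521417 and Zfp846 spans 20581291 to 20605409. The first 4 are on the minus strand and Zfp846 is on the plus strand. Zfp426 and Zfp266 follow each other closely, with 2.3 kb between them, while 59.9 kb separate Zfp266 and Zfp846. A long non-coding RNA gene on the plus strand, Gm26733, runs across Zfp426 and Zfp266 and part of Zfp26. Peaks were sparse here: the windows held 6.25 to 12.06 merged intervals per 100 kb, against a median of 15.58 over the windows of all protein coding genes and 12.12 over those of the Zfp-numbered genes.

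The target of a Zfp266 guide RNA is shown first, because it bears on which gene was cut. The labels do not say which guide the ATAC-seq cells received, so the guide that the study marked for its detailed analyses was assumed, and the position given here rests on that. The capitals mark the PAM, the bases next to the target that Cas9 requires.
Zfp266 guide target: cagaagaatctataccgagAGG
The site lies on the minus strand of chromosome 9 from 20505088 to 20505109, in exon 6 of 9 of the transcripts that code for the whole protein. The cut falls in codon 67 of 604, after 11.0% of the coding sequence. The 19-base target followed by an NGG PAM was found 1 time in chromosomes 1 to 19, X and Y, and the member windows and the sequence between them held 0 further NGG sites with up to 5 mismatches. Thus none of the 4 neighbouring genes has a site closely like it. The nearest merged interval to the cut lay 4.22 kb away, so that no peak covered the edited exon in any group.

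The start sites of the 5 genes are shown next, since each carried a peak in all 4 groups. The lines give 70 bases before and 30 bases after the RefSeq start site (GRCm38.p6), 5′ to 3′ along the gene. Capitals mark matches to the words searched: CCAAT (NF-Y), CCGGAAG (ETS), TGACGTCA (CREB/ATF) and GGAAGTGAC, a word that was added after the sequences had been seen.
Zfp560: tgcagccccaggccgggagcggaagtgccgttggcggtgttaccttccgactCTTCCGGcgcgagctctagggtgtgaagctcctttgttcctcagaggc
Zfp26: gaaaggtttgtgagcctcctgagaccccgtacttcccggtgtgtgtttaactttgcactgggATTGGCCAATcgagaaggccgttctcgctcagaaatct
Zfp426: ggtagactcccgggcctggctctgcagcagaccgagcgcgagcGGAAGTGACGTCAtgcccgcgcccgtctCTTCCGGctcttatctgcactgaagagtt
Zfp266: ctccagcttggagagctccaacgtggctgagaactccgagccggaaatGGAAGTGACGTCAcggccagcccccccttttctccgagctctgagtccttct
Zfp846: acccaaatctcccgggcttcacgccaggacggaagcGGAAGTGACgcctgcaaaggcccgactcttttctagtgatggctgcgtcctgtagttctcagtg
Zfp426, Zfp266 and Zfp846 share GGAAGTGAC within the last 34 bases before the start site, and in Zfp426 and Zfp266 it runs into TGACGTCA. Over 32544 RefSeq promoters of 300 bases (250 before and 50 after the start site), searched on both strands, GGAAGTGAC was found in 1.45% and TGACGTCA in 1.8%. Among 367 promoters of Zfp-numbered genes the shares were 6.27% and 3.54%. Zfp560 and Zfp426 hold the ETS word CCGGAAG, which 8.91% of all promoters and 21.53% of the Zfp-numbered promoters hold. Zfp26 and Zfp560 have neither GGAAGTGAC nor TGACGTCA. Zfp26 has 2 matches to CCAAT in opposite directions, and 37.36% of all promoters and 48.23% of the Zfp-numbered promoters have at least 1. Zfp26 also has the fewest CG dinucleotides of the 5, 7 in its 300 bases, where Zfp560 and Zfp266 have 23, Zfp426 has 21 and Zfp846 has 9, against medians of 14 in the Zfp-numbered promoters and 7 in all promoters, so that its count is near the middle of all promoters. GGGCGG (SP/KLF) was matched in the 300 bases of Zfp560, Zfp426 and Zfp266 (35.88% of all promoters), and AAGATGG (YY1) in those of Zfp26 (6.37%). GCGCATGCG (NRF1), the AP-1 words TGACTCA and TGAGTCA and the octamer ATTTGCAT had no match in these windows, and 1.76%, 5.19% and 1.75% of all promoters hold them.

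Peak heights were read from the lists made by the authors, which give for each peak a fold enrichment, the mean ratio of reads over local background across the peak, and a −log10 q-value for its call. There was 1 list per group, read here as made from its merged replicates, so a fold has no replicate error and no test was possible between groups. A loss or gain of a peak is a change of call at the authors' threshold. For Zfp266 the start-site peak had folds of 5.46 (control) and 5.08 (KO) in MEF and of 5.03 (control) and 4.52 (KO) in reprogramming. Its interval reached from 20520087 to 20522326 and kept a width of 2087 to 2195 bases in the 4 groups. The KO to control ratio was 0.931 in MEF and 0.899 in reprogramming, with medians of 0.988 and 0.976 over the 12921 genes that had start-site peaks in every group. Lower ratios were found for 14.5% and 12.8% of those genes. The −log10 q-value was higher in KO in MEF (96.4 against 89.7) and lower in KO in reprogramming (41.3 against 49.3). Thus the promoter of the disrupted gene had a peak in KO cells in both contexts. Neither ratio passed the 1.5-fold used here to call a difference, and single folds without replicates give no direction.

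**Figure D1:**
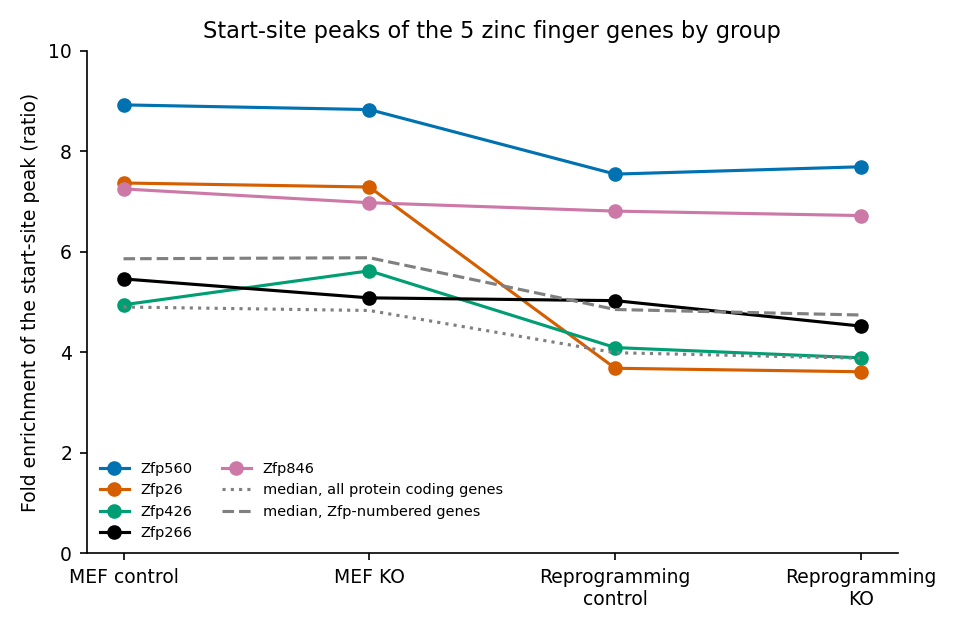
Fold enrichment of the start-site peak (vertical axis, ratio) of each member in the 4 groups (horizontal axis), 1 value per group from merged replicates, with the medians over all protein coding genes and over Zfp-numbered genes. Zfp26 drops from 7.37 and 7.29 in MEF to 3.68 and 3.61 in reprogramming, whereas Zfp560 and Zfp846 are the 2 highest in reprogramming.

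Among the neighbours, Zfp560 had the highest start-site peak, with folds of 8.92, 8.83, 7.54 and 7.69 in MEF control, MEF KO, reprogramming control and reprogramming KO. In each group at least 98.7% of genes with start-site peaks were lower. Its interval also covers the start of 4921534A09Rik on the other strand, and ATAC-seq cannot assign the opening to either of them. Zfp846, the member on the plus strand, had folds of 7.25, 6.98, 6.81 and 6.72 and changed least between contexts, with a reprogramming to MEF ratio of 0.939 in control and 0.963 in KO. Zfp426 had folds of 4.94, 5.62, 4.09 and 3.89. The KO to control ratio of Zfp426 in MEF, 1.137, was the highest of the 5, and 98.5% of genes had a lower one. The MEF KO peak of Zfp426 was also narrower than that of MEF control (1563 against 1912 bases), and its −log10 q-value was 97.1 against 75.1. The part of the width in this difference was not tested. In reprogramming the ratio was 0.95.

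Zfp26 was the member whose start site differed between contexts. Its folds in MEF were 7.37 (control) and 7.29 (KO), and those in reprogramming were 3.68 (control) and 3.61 (KO). The reprogramming to MEF ratios were 0.499 and 0.495, whereas the medians over the 12921 genes with start-site peaks in every group were 0.843 and 0.83. Of these genes 2.8% had a lower ratio in control and 2.9% in KO. The peak also narrowed, from 1263 and 1172 bases in MEF to 742 and 692 bases in reprogramming, with −log10 q-values of 116.1, 130.0, 52.2 and 44.1. KO and control hardly differed within a context, with ratios of 0.989 and 0.981. Drops of 1.5-fold or more at start sites occurred, in control, in 16.68% of the 12921 genes and 14.15% of the 311 Zfp-numbered genes that had start-site peaks in every group. The other 4 members had ratios of 0.692 to 0.963, and the value of 0.692 belonged to Zfp426 in KO.

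**Figure D2:**
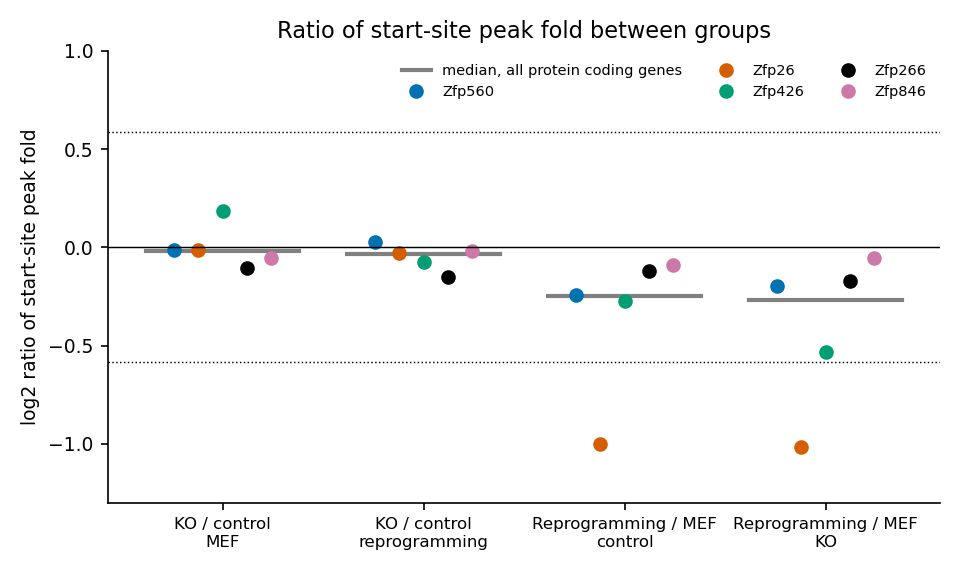
Log2 ratio of the start-site peak fold (vertical axis) for the 4 pairs of groups (horizontal axis), with 1 point per member, a grey bar for the median of the 12921 protein coding genes with start-site peaks in every group and dotted lines at ratios of 1.5 either way. Zfp26 alone lies past the lower line, at ratios of 0.499 and 0.495, in the pairs that set reprogramming against MEF.

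Apart from the 5 start sites, the windows held 20 intervals, of which 5 had a peak in all 4 groups. The windows held 17 peaks in control and 16 in KO for MEF, and 19 in control and 18 in KO for reprogramming. Of the 25 intervals, 10 had a peak in all 4 groups, the 5 start sites among them. Another 4 had a peak in both MEF groups and in neither reprogramming group, a pattern seen in 27.5% of all merged intervals. The reverse was found for 6, against 27.4% of all merged intervals. All 4 groups shared a peak at 24.7% of all merged intervals. The 10 in the windows include the start sites, which the windows hold by construction, and apart from these they were 5 of 20. In control, reprogramming against MEF gained 7 peaks (33.9% of all merged intervals), lost 5 (32.4%), raised the fold by 1.5 times or more at 1 (2.63%) and lowered it at 2 (6.79%). In KO it gained 8 (32.1%), lost 6 (31.7%), raised 1 (2.69%) and lowered 1 (6.37%). With any overlap counted as shared, the gains and losses were at or below these background shares when set over all 25 intervals. The 5 start sites are among the 25 and were neither gained nor lost. Over the other 20 intervals, the 7 gains in control and 8 in KO were above the background shares. The 5 losses in control and 6 in KO were still below them. These differences were not tested. The counts depended on the setting: in control they were 12 gained and 10 lost where 50% reciprocal overlap was required, and with −log10 q of 5 or more the losses were 3 in control and 3 in KO. The background was not recomputed for these settings.

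**Figure D3:**
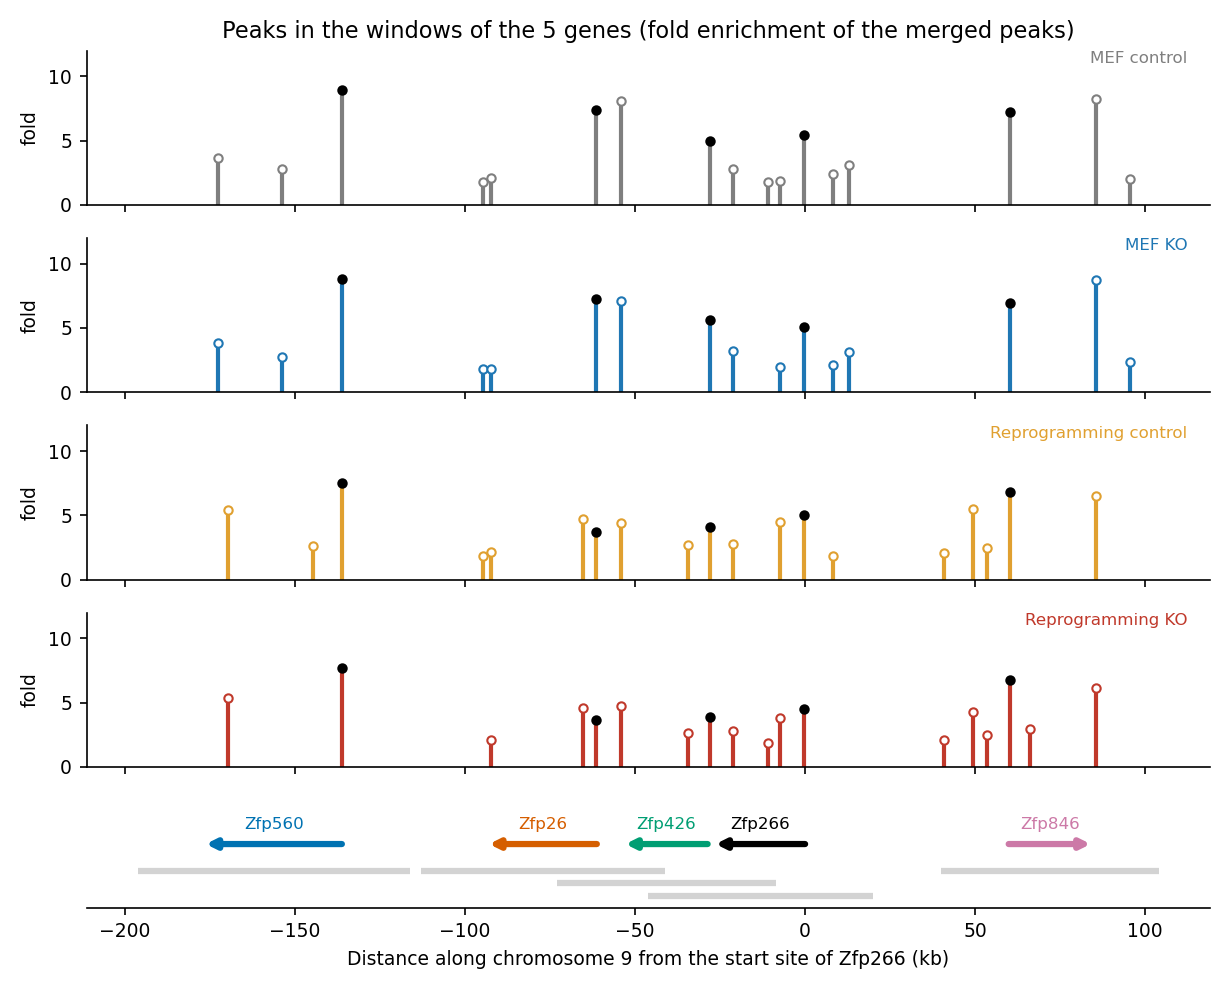
Fold enrichment (vertical axes) of the merged intervals in the windows, against the distance along the chromosome from the start site of Zfp266 in kb (horizontal axis), with a panel per group and the genes as arrows above their grey windows. Filled points are start sites. The MEF panels share a peak of fold 3.66 and 3.84 at the left end that is missing in reprogramming, where a peak of 5.40 and 5.32 appears close by.

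At Zfp26, elements besides the start site differed between contexts. A peak in an intron 3.7 kb inside the gene, from 20455508 to 20456430, was called only in reprogramming, with folds of 4.71 in control and 4.55 in KO. Upstream, 6.8 kb before the start site and in an intron of Gm26733, an interval from 20466921 to 20467686 had folds of 8.08 and 7.07 in MEF control and KO and 4.39 and 4.73 in reprogramming. Its reprogramming to MEF ratio was 0.544 in control and 0.67 in KO, so that the second stayed just short of a 1.5-fold drop. At the 3′ end of the gene, weak peaks with folds of 1.8 to 2.16 were present in every group, 342 to 2417 bases wide, in an interval from 20427830 to 20430259.

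Within Zfp266, an intronic interval 7.0 kb inside the gene, from 20513550 to 20514426, rose between contexts. Its folds were 1.83 (control) and 2.00 (KO) in MEF against 4.51 (control) and 3.83 (KO) in reprogramming, giving reprogramming to MEF ratios of 2.457 and 1.919. This was the only interval in the windows with a gain in fold of 1.5 times or more, and it was so in control and KO alike. Upstream of Zfp266, by 12.4 kb, an interval from 20533833 to 20534752 was called only in MEF, with folds of 3.08 and 3.12. The last exon of Zfp266, which holds coding sequence, carried a weaker peak (20499478 to 20500869) in all groups, with folds of 2.79, 3.19, 2.79 and 2.82. In Zfp426, an intronic peak 5.3 kb inside the gene (20486729 to 20487403) was called only in reprogramming, at 2.67 in control and 2.60 in KO.

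Around Zfp846, 3 intervals upstream of the start site were called only in reprogramming. The strongest, 10.2 kb upstream from 20570662 to 20571089, had a fold of 5.46 in control and 4.28 in KO, a ratio of 0.783 that was the lowest between KO and control among the intervals of the windows. The other two, 6.1 kb upstream (20574793 to 20575268) and 18.9 kb upstream (20562035 to 20562422), had folds of 2.03 to 2.46. Of their 32-base words 17.9%, 41.1% and 62.2% occur more than once in the genome, so reads could have come from elsewhere. The same holds for the weak peak 7.8 kb upstream of Zfp266 (28.0%), the interval at the 3′ end of Zfp26 (19.2%) and the start-site interval of Zfp426 (15.0%), while the share was at most 7.0% in the other 19 intervals. At the 3′ side of Zfp846, an interval from 20605823 to 20608205 had folds of 8.21, 8.75, 6.47 and 6.16 and covers the first exon of the antisense gene Fbxl12os. Another, from 20616660 to 20617110, was called only in MEF at 2.03 and 2.39.

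Zfp560 held peaks that were called in 1 context only, of both kinds. In MEF, its last exon, which is coding, had a peak from 20348403 to 20349009 with folds of 3.66 in control and 3.84 in KO, and an intronic peak from 20367318 to 20367774 had folds of 2.80 and 2.75. Neither was called in reprogramming. There, an interval from 20350900 to 20352222 was called at 5.40 in control and 5.32 in KO, with no peak in MEF. It lies 33.0 kb inside the gene and covers exon 4 of Zfp560, which is coding, and intron on both sides. Of its 32-base words 0.7% occur more than once in the genome.

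That interval was also the single interval in the windows listed by the authors as differing between KO and control, and the only one for which values of single libraries were available. No interval in the windows was on the MEF list, on which 479 intervals (0.175% of all merged intervals) were higher in KO. On the reprogramming list 1522 intervals (0.557%) were higher in KO. A listed interval lay in the window of 8.46% of all protein coding genes and 8.49% of the Zfp-numbered genes in reprogramming, so that 1 of 5 members is close to what these shares give. The normalised read counts were 307.27, 290.31 and 370.72 in the reprogramming control libraries and 494.95, 515.44 and 546.15 in the KO libraries. Every KO library was above every control library, and the lowest KO value exceeded the highest control value by 124 normalised counts. The means were 323 ± 42.4 and 519 ± 25.8 (SD, n = 3 each), from 879 and 1304 raw reads. By edgeR's quasi-likelihood test the log2 difference was 0.69 with a standard error of 0.08 (1.62-fold, adjusted p = 8.06e-15 by Benjamini-Hochberg over 273256 tests). The list was selected on these same libraries, so the retest is not independent evidence, and its spread was estimated from selected intervals. The exact permutation test over 20 splits gave a two-sided p of 0.10, the smallest possible with 3 against 3. With counts not scaled for library size the call was lost (log2 difference 0.57, adjusted p = 1). With TMM factors computed over the list alone, on which 1522 of 1608 intervals were higher in KO, the difference turned to -0.28 (adjusted p = 0.248).

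**Figure D4:**
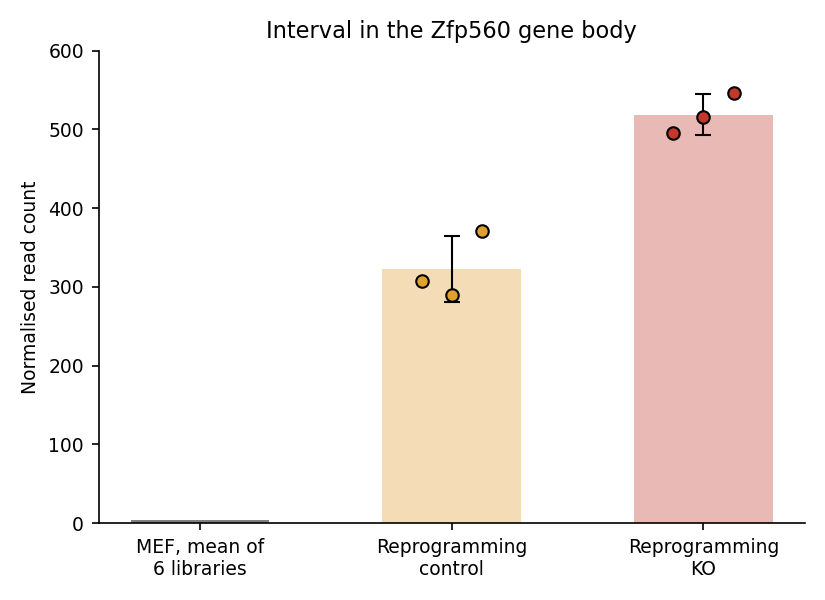
Normalised read counts (vertical axis) of the interval inside Zfp560: points are libraries, bars are means and error bars are SD of 3 libraries, and the MEF bar is the mean of 6 libraries without their single values. Control libraries lie between 290.31 and 370.72 and KO libraries between 494.95 and 546.15, and MEF is at 3.9.

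In MEF the same interval was close to empty. Subtracting the reprogramming libraries from the mean over all 12 libraries left a mean of 3.9 normalised counts for the 6 MEF libraries. Reprogramming control was thus 82.8 times and reprogramming KO 133 times this value, against a 1.62-fold difference between KO and control. Of the 1608 listed intervals 16.1% had a MEF mean this low or lower, and the median was 13.9. The increase was below the median of the list: the median log2 difference over the 1522 intervals higher in KO was 1.03, and 21.4% of them had a smaller one.

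The peak fold of this interval did not follow the counts. Its KO to control ratio was 0.985 in peak fold and 1.607 in mean normalised count, and its −log10 q-value was 61.1 in control and 83.5 in KO. Over the 989 listed intervals higher in KO with a peak in both groups, the median ratio was 1.192 in peak fold and 1.784 in count, and 21.3% had a fold ratio under 1. These intervals were chosen for higher counts in KO, so their 2 medians describe the list and say nothing of peak folds elsewhere.

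A stretch of 300 bases of this interval is shown, because the interval is the listed one. The stretch was placed around the match to an AP-1 word, which the capitals mark, and not at the middle of the interval. It runs from 20351141 to 20351440 on the plus strand, within an intron. The counts are of the whole interval and do not show which of its bases were open.
Interval in Zfp560: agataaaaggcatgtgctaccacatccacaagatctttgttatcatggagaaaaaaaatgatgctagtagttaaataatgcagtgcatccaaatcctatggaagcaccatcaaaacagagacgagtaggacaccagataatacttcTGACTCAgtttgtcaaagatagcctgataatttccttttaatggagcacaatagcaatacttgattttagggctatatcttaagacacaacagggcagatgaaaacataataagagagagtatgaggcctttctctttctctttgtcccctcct
An AP-1 word occurs in 39.7% of the 22075 merged intervals within 10% of its length, and CCAAT, matched 1 time in the rest of the interval, in 82.7%. The octamer ATTTGCAT had no match in the interval (7.8% of those intervals hold it). Of its bases, 37.6% are masked as repeats, but neither AATCCCAGC nor CCAGCCTGG, short words of the B1 family of repeats, was present. Only exact matches were searched, so diverged copies are missed and the absence does not show that the interval lacks a B1 element. The study reported SINE repeats, the class that holds B1, at most regions more open in reprogramming KO. At least 1 of these B1 words was found in 4 of the 25 intervals, or 16.0%, against 12.7% of all merged intervals, which are of varied length.

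Between KO and control within a context, the remaining differences were gains and losses of peaks with folds of 1.78 to 2.96. In MEF, 0 intervals in the windows gained a peak in KO (3.65% of all merged intervals) and 1 lost it (4.79%), an intronic peak in Zfp266 from 20510013 to 20510733 with a fold of 1.78 in MEF control. It was called again in reprogramming KO, at 1.88, and not in reprogramming control. In reprogramming, 2 gained a peak (4.96%) and 3 lost it (7.27%). These small counts changed with the setting: for 50% reciprocal overlap they were 2 gained and 3 lost in MEF and 4 gained and 5 lost in reprogramming, and for −log10 q of 5 or more they were 0 and 0 in MEF and 1 and 1 in reprogramming. The other gain was an intronic peak of Zfp846 from 20587446 to 20587662 with a fold of 2.96. The losses were an intronic peak of Zfp560 from 20376490 to 20376747 with a fold of 2.64, a weak peak downstream of Zfp26 (1.82), and a peak 7.8 kb upstream of Zfp266 (1.85). No interval had a fold ratio of 1.5 or more either way between KO and control, in MEF (0.102% of all merged intervals) or in reprogramming (0.186%). No interval was called in both KO groups and in neither control group (0.0944% of all merged intervals), nor the reverse (0.118%). The intervals with a peak in both groups had KO to control ratios of 0.846 to 1.181 in MEF and 0.783 to 1.078 in reprogramming.

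By the Euclidean distance of log2 start-site folds over the 4 groups, the Zfp-numbered genes most like Zfp266 were Zfp968 (0.078), Zfp969 (0.113), Zfp414 (0.114), Zfp212 (0.121) and Zfp442 (0.125), of 311 with a start-site peak in every group. None of the 5 is on chromosome 9. Zfp968, the nearest, had folds of 5.45, 4.94, 5.20 and 4.66.

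Of 8 other zinc finger genes of chromosome 9 that were looked for, 7 were matched by symbol. These 7 (Zfp317, Zfp558, Zfp599, Zfp653, Zfp809, Zfp810 and Zfp872) each had a start-site peak in every group. A listed interval lay in the window of 0 of the 7 in either context, against 8.46% of all protein coding genes in reprogramming and 2.96% in MEF. In control, 1 of the 7 dropped by 1.5 times or more in reprogramming, Zfp872, with folds of 6.52 and 6.84 in MEF control and KO and 2.25 and 2.79 in reprogramming. Among the 5 members 1 did, Zfp26, and the share over the 12921 genes with start-site peaks in every group was 16.68%. Whether the members and these genes differ was not tested.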

How the data were processed

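Reads were trimmed with Cutadapt, aligned to GRCm38 with BWA and filtered by the authors, who called peaks with MACS2 and counted reads over the union of peaks. The study's methods describe peak calling for single biological samples, whereas the deposited broad peak lists number 1 per group and are named as merged replicates, and they were treated as such here. How reads mapping to several places were treated is not given in the sources used here. In the deposited lists every peak has a fold enrichment, which is a ratio, and a −log10 q-value. The deposited tables give raw counts per library and the authors' normalised signal (counts divided by a DESeq2 size factor), only for intervals under an FDR of 0.05; their columns of fold changes and p-values were not used.

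Here the 4 lists were merged into 273256 intervals, which held all 480 and 1608 listed intervals, and of 661623 peaks 0 exceeded the chromosome lengths of the RefSeq genome. Start coordinates are counted from 1. The start site was that of the most 5′ protein coding transcript. Groups came from the sample titles. Listed intervals of the table with a row in the windows were refitted with edgeR 4.0.16 in R 4.3.3, 3 against 3 libraries, with size factors (0.63 to 1.102) recovered from the counts; the MEF table had no such row and was not fitted. The mean over 12 libraries in the table was that of all libraries at the 70 intervals listed in both. The labels call the replicates separate samples and do not say whether they were separate cultures, so p-values measure the spread between these samples. The depth of whole libraries was not analysed here. The fit was tested on simulated data. Named intervals were the start sites, the listed interval, the 5 others of highest fold and those called in both groups of 1 context or treatment only; further intervals were named after their values had been seen. Members and gene lists were chosen with earlier results of these data known. Promoter sequences and the genome are from RefSeq (GRCm38.p6), and all 5 members were matched by symbol.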

Additional observations from a re-analysis of the deposited data

How the results depend on the processing

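The KO effect at the interval inside Zfp560 (log2 difference 0.69) kept its direction and call with DESeq2, with a filter on low counts, with a replicate block (0.7) and without any single library (0.61 to 0.79). Raw counts gave 0.57 without a call. TMM over the list reversed the difference to -0.28, since TMM centres a list that is nearly all higher in KO. The cause for raw counts was not tested. The interval was listed by the authors' DESeq2 comparison of these same libraries. All 1608 listed intervals passed both the main fit and the block fit. A kept call was thus nearly fixed in advance and is no independent evidence. Deviations of same-numbered libraries correlated at 0.03, 0.1 and 0.08 over 1608 intervals, so the numbers were not treated as pairs. The count of listed intervals in the windows stayed at 1 in reprogramming and 0 in MEF for gene bodies alone and for flanks of 5 and 50 kb. Peaks per group changed by more than 1.5 times with gene bodies alone in MEF control (11), MEF KO (10) and reprogramming control (12), and with −log10 q of 5 or more in MEF control (11). With −log10 q of 5 or more, KO lost 0 peaks in MEF and gained 1 and lost 1 in reprogramming, and reprogramming lost 3 in control and 3 in KO. Requiring 50% reciprocal overlap, KO gained 2 and lost 3 in MEF and gained 4 and lost 5 in reprogramming, and reprogramming gained 12 and lost 10 in control. Start-site folds did not change when any start site within 1 kb was allowed. Peak values had no replicates, so the depth of the merged lists and the calling threshold limit every gain and loss.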

Other observations

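Just outside the windows, 2.5 kb beyond that of Zfp266, an interval from 20543943 to 20545550 had folds of 5.29 (control) and 5.51 (KO) in MEF and 4.73 (control) and 4.96 (KO) in reprogramming, so it was open in every group. A further interval in the same intron of Gm26733, from 20558776 to 20559499, was called only in reprogramming, at 4.56 and 4.42. On the far side of Zfp846, the interval over the start sites of Fbxl12 and Ubl5 fell from 5.36 and 4.97 in MEF to 3.29 and 3.03 in reprogramming.

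Of 17 genes for TRIM28 and other partners of KRAB proteins, 14 had a start-site peak in all 4 groups. Listed intervals lay in the windows of 5 of them in reprogramming (Cbx1, Dnmt3a, Pphln1, Setdb1 and Trim28) and of 1 in MEF (Atf7ip), which is 29.41% and 5.88% of the list, against 8.46% and 2.96% of all protein coding genes. Their windows also held more merged intervals, 19.47 per 100 kb against 15.58 over all genes and 10.9 over the members (medians). Start-site folds of Trim28 were 4.17, 4.19, 3.57 and 3.52 in MEF control, MEF KO, reprogramming control and reprogramming KO. Of the 14, 1 dropped by 1.5 times or more in reprogramming in control (Hdac1, ratio 0.532) and 2 did in KO (Hdac1, 0.62, and Uhrf1, 0.645), or 7.14% and 14.29%, against 16.68% and 17.95% of the 12921 genes with start-site peaks in every group. None rose by 1.5 times or more. The list of 17 was set in the plan, with earlier results of these data known. The genes singled out from it were named after their values had been seen.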
